A study of Mus musculus with 27 samples.

Results

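Livers of female BALB/c mice that had borne and nursed young were compared with livers of mice that never had, to find transcripts that stayed shifted in one direction from lactation to 4 weeks after weaning. The comparison set all 23 parous libraries of the series against its 4 nulliparous libraries, 27 in all. BALB/c is an inbred laboratory strain, and all animals were wild type. Parous females were bred at 10 to 12 weeks of age, litters were evened in size, and whole livers came from age-matched animals. The groups were nulliparous (NUL, 4 libraries), lactation day 10 (LAC, 3), days 2, 4, 6 and 8 after weaning (ID2, 3 libraries, ID4, 4, ID6, 6, and ID8, 3) and 4 weeks after weaning (REG, 4). Animals of the post-weaning groups had been separated from their pups at lactation day 10 to 14. Each of the 6 parous stages was given the same weight, whatever its number of animals. Each library was taken as 1 animal from the number in its title, which the labels do not state outright, and p-values measure the spread between these libraries.

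During pregnancy and lactation the liver works under raised prolactin, and in female rodents the steady pattern of growth hormone secretion also sets the level of many hepatic genes. Both hormones act in hepatocytes through receptors that activate the transcription factor STAT5. The female liver meets the needs of milk production by changing lipid, sterol and amino acid metabolism, and after weaning those demands end abruptly.

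Libraries held between 60498871 and 70815012 expected counts in NUL and between 41120650 and 75664540 in the parous groups. Hepatocyte markers were abundant in all of them, with 10 markers together at 127046 to 156671 CPM (reads relative to the library total, after scaling between libraries) in NUL and 119045 to 271137 in parous libraries. None of 9 mammary epithelial markers passed the filter on low counts, and the milk protein genes Csn2 and Wap had no count in any of the 27 libraries. Of the other markers on that list, Glycam1 reached 336 counts, Krt5 58 and Krt14 22 in a parous library. Markers of exocrine pancreas other than Cela1 and Amy2a5, set aside after reads of them were seen in NUL livers, summed to 0 to 0.0914 CPM in NUL. They had a parous median of 0.142 CPM and reached 1564 in ID2_31, 108 in ID4_15 and 32.9 in ID8_98b. In whole liver, fewer cells of a type and less RNA per cell cannot be told apart.

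Few genes were both called and kept one direction. Of 16428 genes tested, 91 (0.554%) differed between the mean of the 6 parous stages and NUL at an adjusted p under 0.05 (edgeR quasi-likelihood test, Benjamini-Hochberg adjustment), 58 of them higher (0.353%) and 33 lower (0.201%). Of these, 79 (0.481% of the genes tested) lay on the same side of NUL at every stage, 54 higher (0.329%) and 25 lower (0.152%). Whether called or not, 2839 genes (17.3%) had one sign at all 6 stages, and all 6 differences share the same 4 NUL libraries. Most shifts were modest, with a median log2 fold change of 0.64 for the 54 higher genes and -0.62 for the 25 lower genes, and 23 of the 79 changed by more than 1 log2 unit. Every stage mean lay outside the range of the NUL libraries in 31 of the 54 higher and 12 of the 25 lower genes. The median over all genes tested was -0.01. The weakest gene inside the threshold and in one direction was Dio3os at an adjusted p of 0.0486, and the nearest such gene outside it was Tk1 at 0.0519 (log2 0.39, edgeR).

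In 10 called genes (0.0609% of those tested) the separation held animal by animal, so that no parous library overlapped any NUL library. Over all 16428 genes tested, 12 were without overlap, and 2 of these were not called. The retinol dehydrogenase relative Rdh16f2, the lipase gene Lpl, the immune checkpoint gene Vtcn1, the nebulin gene Neb, the steroid hydroxylase gene Cyp2a4, the apoptosis gene Bid and the lysosomal hexosaminidase gene Hexa were higher in all 23 (7 genes, 0.0426%). The membrane-shaping gene Bin2, the small-protein gene Pcp4l1 and the matrix gene Npnt were lower in all 23 (3 genes, 0.0183%).

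**Figure D1:**
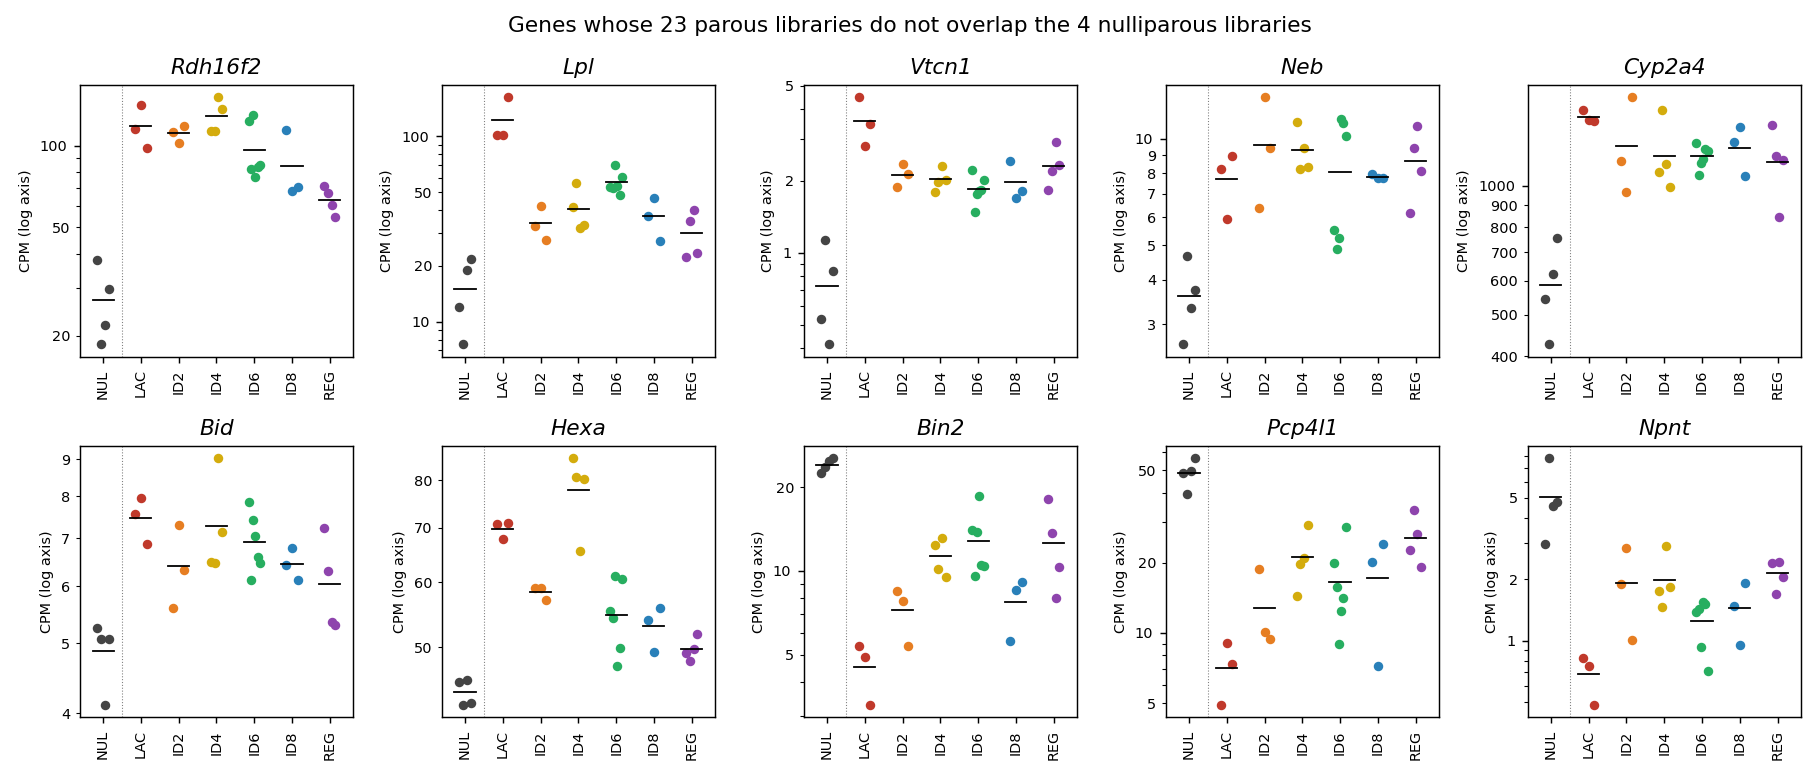
CPM (log axis) of the 10 called genes without overlap, in the 4 nulliparous libraries (NUL, left of the dotted line) and in the 23 parous libraries by stage. Each point is 1 animal and each bar a group mean. Rdh16f2, Lpl, Vtcn1, Neb, Cyp2a4, Bid and Hexa lie above every NUL library, and Bin2, Pcp4l1 and Npnt lie below.

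Because STAT5 carries the signals of prolactin and growth hormone, the stretch from 250 bases before to 50 bases after the start of each gene was searched on both strands for TTCNNNGAA, the STAT5 motif, which reads the same on either strand. RefSeq promoters (GRCm38.p6) were found for 60 of the 79 genes. The motif stood in 6 of these 60 (10%), in 994 of the 11701 tested genes with an entry (8.50%), and in 2726 of all 32851 promoters of this length (8.3%). The 6 genes were Gdpd1, Itpka, Klhl13, Plscr1, Camk1d and 1810058I24Rik. Shown are the promoters of the gene without overlap that rose most (Rdh16f2, chr10:127866226-127866525, plus strand), of a falling gene without overlap (Pcp4l1, chr1:171196219-171196518, minus strand), and of the one gene with 2 matches, chosen after the search (Gdpd1, chr11:87074088-87074387, minus strand). Capitals mark the motif, and the first and the second have none in this window.
Rdh16f2: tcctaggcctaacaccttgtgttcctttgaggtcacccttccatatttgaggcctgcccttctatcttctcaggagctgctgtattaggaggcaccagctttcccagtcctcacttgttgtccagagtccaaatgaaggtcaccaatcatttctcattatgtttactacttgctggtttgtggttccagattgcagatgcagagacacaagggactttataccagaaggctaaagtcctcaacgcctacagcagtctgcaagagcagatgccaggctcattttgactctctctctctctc
Pcp4l1: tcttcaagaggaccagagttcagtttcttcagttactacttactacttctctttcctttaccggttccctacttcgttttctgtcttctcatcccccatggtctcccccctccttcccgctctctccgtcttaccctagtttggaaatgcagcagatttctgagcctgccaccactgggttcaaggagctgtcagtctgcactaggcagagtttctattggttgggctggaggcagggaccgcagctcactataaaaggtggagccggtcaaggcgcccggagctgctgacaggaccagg
Gdpd1: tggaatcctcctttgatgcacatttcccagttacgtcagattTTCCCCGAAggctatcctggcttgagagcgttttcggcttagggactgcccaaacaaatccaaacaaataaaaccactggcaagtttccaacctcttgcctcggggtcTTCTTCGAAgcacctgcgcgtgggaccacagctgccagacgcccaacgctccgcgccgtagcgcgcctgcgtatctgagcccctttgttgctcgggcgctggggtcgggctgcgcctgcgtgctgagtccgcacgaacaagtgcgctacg
Gdpd1, a lysophospholipase D, had 0.935, 1.37, 0.907 and 1.26 CPM in NUL_220, NUL_221, NUL_226 and NUL_227, and 1.14 to 3.67 CPM (median 1.99) in parous livers. It was above every NUL library in 21 of 23 and rose by 0.91 on the log2 scale (SE 0.15, adjusted p = 0.00185, edgeR). A match of letters is a description and not evidence of binding.

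The genes are described below by function, a grouping made after their values were seen and not tested for enrichment. Rdh16f2 (ENSMUSG00000074639, GRCm38 chromosome 10, 127866474 to 127877317, plus strand), which belongs to a family of enzymes that oxidise retinol and hydroxysteroids, was the clearest of the rising genes. NUL libraries had 38.1, 18.6, 21.9 and 29.8 CPM, in the order NUL_220, NUL_221, NUL_226 and NUL_227 used throughout, and parous libraries 54.4 to 150 (median 102). The lowest parous library was from REG and still stood above the highest NUL library. The fitted difference was 3.60-fold (log2 1.85, SE 0.19, adjusted p = 1.94e-05, edgeR). Stage means went from 128 CPM at ID4 to 63.1 at REG, and the 6 stages differed (adjusted p = 0.00968, edgeR F test among stages). Of 18 retinoid genes tested edgeR called no other, although 8 including Rdh16f2 had an unadjusted p under 0.05 (10.5% of all genes tested did) and DESeq2 called 3 in all (1.85% of all genes it tested). Its relatives Rdh16 (log2 0.21, adjusted p = 0.43, edgeR) and Rdh9 (log2 -0.62, adjusted p = 0.090, edgeR) did not pass.

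Several risers act in lipid uptake and breakdown. Lpl (chromosome 8, 68880491 to 68907448, plus strand) encodes lipoprotein lipase, which releases fatty acids from circulating triglyceride and is low in adult liver. It had 12.0, 7.54, 19.1 and 21.8 CPM in NUL and 22.3 to 163 (median 41.9) in parous livers. The gap between the groups was narrow, 21.8 against 22.3 CPM, while the fitted difference was 3.12-fold (log2 1.64, SE 0.25, adjusted p = 0.00164, edgeR). LAC stood highest at a mean of 122 CPM, REG lowest among parous stages at 30.2, and ID6 between them at 56.6. Adipose tissue is rich in Lpl, and 5 adipose markers that passed the filter (Adipoq, Plin1, Cfd, Retn and Adrb3) summed to 0.143 to 1.31 CPM in NUL and 0.0451 to 12.8 in parous livers. In LAC, where Lpl was highest, the sum was 0.173 to 1.29 CPM, inside the NUL range. A sixth listed marker, Pnpla3, is also made by hepatocytes and was left out of the sum after its values were seen. With Pnpla3 the sum was 3.69 to 11.3 CPM in NUL and 51.1 to 54.7 in LAC. The part of adipose RNA in the level of Lpl was not tested. Lsr, a lipoprotein receptor, also rose (log2 0.41, SE 0.08, adjusted p = 0.0186, edgeR, or 0.171 without NUL_226), with shared reads in all 27 libraries.

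Cd36, the fatty acid receptor, had 48.9, 32.5, 32.3 and 26.2 CPM in NUL and 42.2 to 93.7 (median 61.6) in parous livers. Of the parous libraries, 20 of 23 exceeded every NUL library, and the rise was 1.83-fold (log2 0.87, SE 0.15, adjusted p = 0.00502, edgeR). Without the libraries with title numbers under 200 the adjusted p was 0.0716. Eci3, an isomerase used in the oxidation of unsaturated fatty acids, rose 3.55-fold (log2 1.83, SE 0.29, adjusted p = 0.00183, edgeR) from 1.42, 1.28, 0.827 and 1.03 CPM to a parous median of 3.29. It was above NUL in 21 libraries, most at ID2 (mean 8.74 CPM) and least at ID6 (1.70). Reads of Eci3 were shared with other genes in 21 of 27 libraries, so its level depends on how RSEM divided them. The acyl-CoA dehydrogenase genes Acad9 (log2 0.29) and Acad10 (log2 0.33) rose by small amounts (adjusted p = 0.0299 and 0.0196, edgeR), and without NUL_226 neither was called (0.244 and 0.171). Both had shared reads in all 27 libraries. Acad10 was almost level with NUL at LAC (log2 0.02), as was Acad9 at ID6 (log2 0.04). Eci3 was the single edgeR call among 22 fatty acid oxidation and PPAR alpha genes tested, of which DESeq2 called 2 (1.85% of all genes it tested). At an unadjusted p under 0.05, 1 of the 22 was higher and 6 were lower, against 10.5% of all genes in either direction, and their median log2 fold change was -0.12. Lpl was the single call, by edgeR and by DESeq2, among 16 lipid droplet and lipase genes, with a median of -0.02.

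Some enzymes that handle steroids and foreign compounds rose as well. Cyp2a4 (chromosome 7, 26307169 to 26315088, plus strand), a cytochrome P450 that hydroxylates steroids and is higher in female than in male mouse liver, had 545, 426, 621 and 756 CPM in NUL and 845 to 1608 (median 1176) in parous livers. Its stage means lay within 1139 CPM at REG and 1447 at LAC, and no difference among stages was called (adjusted p = 0.555, edgeR F test). The shift was 2.09-fold (log2 1.07, SE 0.14, adjusted p = 4.92e-05, edgeR). Part of its reads were shared in all 27 libraries, and the near-identical Cyp2a5 (log2 0.33, SE 0.25) did not pass (adjusted p = 0.71, edgeR). Cyp3a41a, also enriched in females, rose from 430, 486, 239.3 and 337 CPM to a parous median of 805 (range 306 to 1544; log2 1.15, SE 0.20, adjusted p = 0.00610, edgeR), and returned nearest to NUL at REG with a mean of 414. Without NUL_226, its lowest control, the adjusted p was 0.0511. Its copy Cyp3a41b (log2 0.996, SE 0.21, adjusted p = 0.0299, or 0.133 without NUL_226) and the glucuronosyltransferase Ugt1a9 (log2 0.95, SE 0.13, adjusted p = 3.00e-04) moved the same way in edgeR. Part of the reads of Ugt1a9 were shared in all 27 libraries. Its rise was largest at LAC (log2 2.17), and its REG mean of 27.4 CPM lay inside the NUL range of 19.3 to 29.2. Cyp3a41a and Cyp3a41b are close copies and are not independent. Of 20 xenobiotic P450 genes tested, Cyp2a4 and Cyp3a41a were the only edgeR calls, both higher, and the list's median was 0.05.

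Small rises were seen in genes of lysosomal enzymes. Hexa (chromosome 9, 59539540 to 59565109, plus strand), the alpha subunit of beta-hexosaminidase, had 45.4, 42.5, 45.6 and 42.7 CPM in NUL and 47.4 to 85.2 (median 57.2) in parous livers. The NUL values lay so close together that a 1.36-fold difference separated all animals (log2 0.44, SE 0.06, adjusted p = 2.59e-04, edgeR). ID4 was highest at a mean of 78.0 CPM and REG lowest at 49.7. The acid phosphatase Acp5 (log2 0.30, adjusted p = 0.0261) and the nuclease Dnase2b (log2 0.34, adjusted p = 0.0469) were also called higher by edgeR. Without NUL_226 both calls were lost (adjusted p = 0.106 and 0.232), and Dnase2b was called in 10 of 27 fits that each left out 1 library.

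Among immune and cell death genes, Vtcn1 (chromosome 3, 100825459 to 100896922, plus strand), a surface ligand that restrains T cells, was low in NUL at 0.528, 1.13, 0.414 and 0.836 CPM and stood at 1.48 to 4.47 (median 2.02) in parous livers. The rise was 3.09-fold (log2 1.63, SE 0.20, adjusted p = 1.94e-05, edgeR), with LAC highest at 3.57 CPM and REG next at 2.31. Bid (chromosome 6, 120891930 to 120916853, minus strand), which links death receptors to mitochondrial apoptosis, had 5.26, 5.08, 4.10 and 5.08 CPM in NUL and 5.31 to 9.04 (median 6.58) in parous livers. The groups almost touched, at 5.26 and 5.31 CPM, and the difference was 1.38-fold (log2 0.47, SE 0.10, adjusted p = 0.0252, edgeR). The call for Bid was lost without NUL_221, NUL_226 or NUL_227, with an adjusted p of up to 0.193. Ifi27l2b, of an interferon-inducible family, rose by 1.45 on the log2 scale (SE 0.23, adjusted p = 0.00164, edgeR). Of 20 interferon-stimulated genes on the list edgeR called none, with 2 at an unadjusted p under 0.05 (10.5% of all genes tested). DESeq2 called 1 of the 20 (1.85% of all genes it tested). Stat6, which carries interleukin-4 signals, rose by 0.27 (SE 0.06, adjusted p = 0.0246, edgeR; 0.133 without NUL_226).

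Neb (chromosome 2, 52136647 to 52378474, minus strand) encodes nebulin, a giant actin-binding protein of skeletal muscle. It had 2.63, 4.66, 3.33 and 3.74 CPM in NUL and 4.87 to 13.1 (median 8.23) in parous livers, a 2.37-fold difference (log2 1.24, SE 0.23, adjusted p = 0.00855, edgeR). Stage means ran from 7.70 CPM at LAC to 9.63 at ID2, and no difference among stages was called (adjusted p = 0.875, edgeR F test). Without NUL_226 the adjusted p was 0.0635. Gpc3, a cell-surface proteoglycan abundant in fetal liver, rose from 2.33, 2.65, 6.97 and 7.30 CPM to a parous median of 10.998 (4.94 to 34.3; log2 1.43, SE 0.24, adjusted p = 0.00422, edgeR), and its REG mean of 5.97 lay inside the NUL range. Without the libraries with title numbers under 200 its adjusted p was 0.0573.

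Falling genes were fewer and several fell steeply. Npnt (chromosome 3, 132881745 to 132950291, minus strand), the matrix protein nephronectin that binds integrins, had 2.98, 7.82, 4.53 and 4.77 CPM in NUL and 0.485 to 2.91 (median 1.51) in parous livers. The highest parous library lay just under the lowest NUL library, and the mean difference was 3.40-fold (log2 -1.77, SE 0.21, adjusted p = 1.94e-05, edgeR). Pcp4l1 (chromosome 1, 171173262 to 171196268, minus strand), a small protein related to the calmodulin regulator Pcp4, had 48.4, 39.4, 49.7 and 56.3 CPM in NUL and 4.90 to 33.8 (median 18.8) in parous livers. It was lowest at LAC with a mean of 7.09 CPM and had come back in part by REG, at 25.6 (log2 -1.64, SE 0.24, adjusted p = 0.00157, edgeR). Bin2 (chromosome 15, 100641077 to 100669553, minus strand), a BAR-domain protein known from leukocytes, had a tight NUL level of 22.4, 23.7, 24.9 and 25.5 CPM and 3.29 to 18.7 (median 9.56) in parous livers (log2 -1.45, SE 0.16, adjusted p = 1.94e-05, edgeR). LAC was again lowest, at 4.53 CPM, and REG stood at 12.6. Among markers of leukocytes, edgeR called none of 16 for macrophages, 11 for neutrophils, 15 for B and plasma cells and 18 for T and NK cells. Unadjusted p (edgeR) was under 0.05 in 1, 0, 5 and 1 of them, against 10.5% of all genes tested. Of the 5 for B and plasma cells, 4 were higher and 1 lower. DESeq2 called 1, for B and plasma cells, against 1.85% of all genes it tested.

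Ntrk2, the receptor for brain-derived neurotrophic factor, showed the steepest fall. NUL had 24.4, 18.4, 14.6 and 19.9 CPM, and parous livers 0.328 to 17.0 (median 2.43), with 22 of 23 below every NUL library. The exception was REG_239, the highest parous value, against 3.28 to 4.20 CPM in the other REG livers. The difference was 5.74-fold (log2 -2.52, SE 0.43, adjusted p = 0.00502, edgeR). The lowest stages were LAC at 0.972 CPM and ID4 at 1.85.

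Membrane transporters were among the falling genes. Slc39a5, a zinc importer, had 9.34, 9.19, 9.16 and 8.03 CPM in NUL and 1.62 to 8.25 (median 3.24) in parous livers, 22 of 23 below NUL (log2 -1.25, SE 0.16, adjusted p = 4.60e-05, edgeR). Its course ran against the others, since LAC was nearest to NUL (log2 -0.30), ID6 furthest (-1.92) and REG still low (-1.68). It was the single edgeR call among 18 zinc genes tested. Slc17a8, a vesicular glutamate transporter, fell by 1.22 on the log2 scale (SE 0.18, adjusted p = 6.05e-04, edgeR), furthest at ID2.

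Regulators of the small GTPase Rap appeared on both sides. Rapgef4, an exchange factor that cAMP activates, had 118, 116, 136 and 133 CPM in NUL and 69.1 to 117 (median 92.6) in parous livers (log2 -0.46, SE 0.09, adjusted p = 0.00873, edgeR), and 22 of 23 lay below NUL. Rapgef5, another exchange factor, fell by 0.40 (SE 0.08, adjusted p = 0.0186, edgeR), while Rap1gap2, which switches Rap off, rose by 0.91 (SE 0.16, adjusted p = 0.005001, edgeR). The call for Rapgef4 was lost without NUL_226 or NUL_227, and that for Rapgef5 without NUL_220, NUL_221 or NUL_227. That for Rap1gap2 was lost without NUL_227 (adjusted p = 0.0503, edgeR), without the libraries with title numbers under 200 (0.0508) and with a score of clock genes as a covariate (0.0609).

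Matrix and structural genes fell by smaller amounts. Reln, a secreted glycoprotein made by hepatic stellate cells, had 71.5, 57.6, 85.3 and 94.7 CPM in NUL and 43.7 to 71.1 (median 55.8) in parous livers (log2 -0.44, SE 0.10, adjusted p = 0.0261, edgeR). It was the single edgeR call among 17 stellate cell and matrix genes tested, whose median log2 fold change was -0.24 against -0.01 over all genes. At an unadjusted p under 0.05 (edgeR), 5 of the 17 were lower and 0 higher, against 10.5% of all genes in either direction. Of the 17, 9 kept one sign at every stage, against 17.3% of all genes tested. The call for Reln was lost without NUL_226 or NUL_227, with an adjusted p of up to 0.214 (edgeR). Ltbp4, which binds latent TGF-beta, fell by 0.51, Adamts1, a matrix protease, by 0.47, Abi3bp by 0.44 and Sparcl1 by 0.41 (edgeR adjusted p = 0.00653, 0.0232, 0.0423 and 0.0423). All 4 lost their calls without NUL_226, at adjusted p of 0.114, 0.133, 0.308 and 0.480, and Abi3bp and Sparcl1 were called in 13 and 14 of 27 fits that each left out 1 library. For Sparcl1, 9 of 23 parous libraries lay below every NUL library. Myo15b, an unconventional myosin gene, fell by 0.87 (SE 0.16, adjusted p = 0.00442, edgeR), and lost its call without NUL_221. The 3 remaining named falls, Mamdc2 (-0.62), Cox6b2 (-0.57) and Ston1 (-0.33), had adjusted p of 0.0419, 0.0441 and 0.0480 and were called in 11, 13 and 7 of 27 edgeR fits that each left out 1 library.

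The size of the shift varied with the stage in most of the 79 genes, while the direction by definition did not. Among the 54 higher genes the median log2 difference from NUL was 0.99 at LAC, 0.71 at ID2, 0.61 at ID4, 0.52 at ID6, 0.64 at ID8 and 0.37 at REG. Among the 25 lower genes it was -1.15 at LAC, -0.63, -0.54, -0.56 and -0.47 on days 2 to 8 after weaning, and -0.41 at REG. LAC was the stage furthest from NUL in 44 of the 79 genes and REG the nearest in 37. Differences among the 6 parous stages were tested in the fit of all 27 libraries, by a contrast that does not use the NUL level. Such a difference was called in 60 of the 79 genes, against 4643 of all genes tested (28.3%). In the other 19, among them Neb, Cyp2a4, Bid, Rapgef4 and Cd36, the edgeR F test called none. Each stage alone differed from NUL in 1837 genes at LAC (11.2%), 532 at ID2 (3.24%), 698 at ID4 (4.25%), 178 at ID6 (1.08%), 82 at ID8 (0.499%) and 14 at REG (0.0852%).

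**Figure D2:**
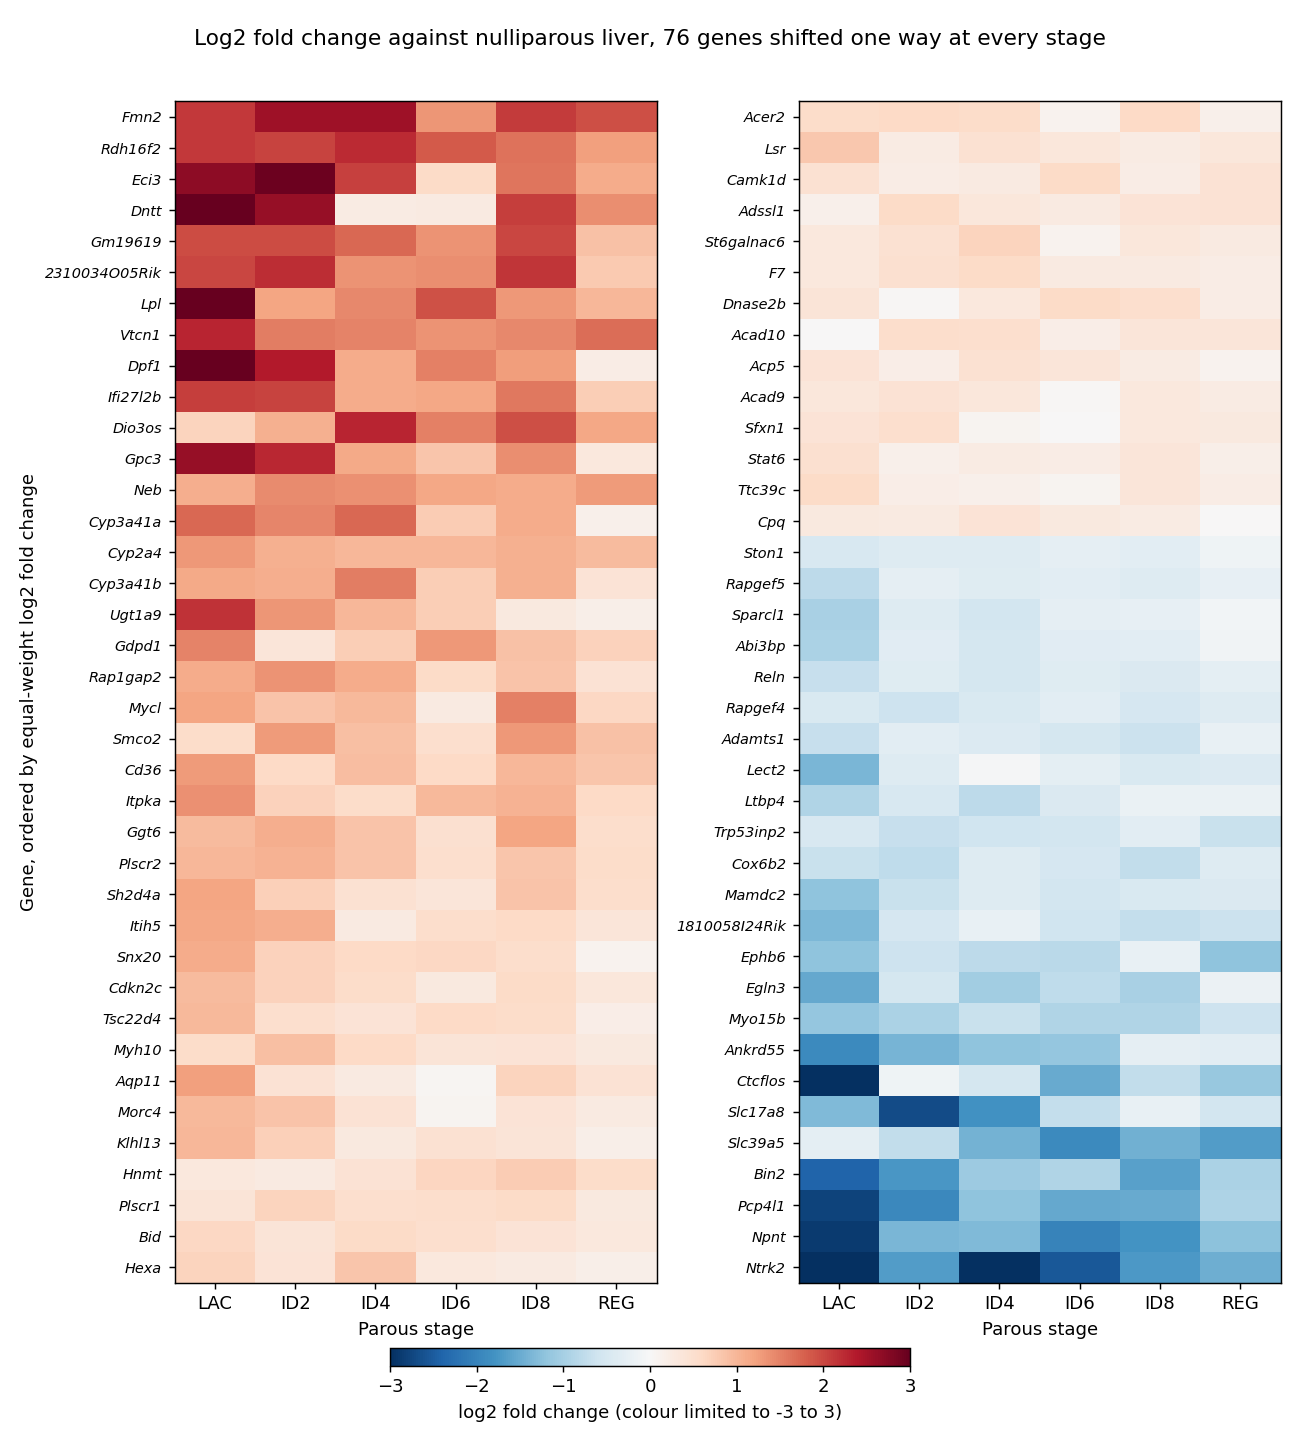
Log2 fold change against nulliparous liver of 76 of the 79 genes called and shifted in one direction, at each of 6 parous stages (columns). Genes are ordered by their equal-weight change, red is higher and blue lower, and colour is limited to -3 to 3. Over all 79 genes, LAC is furthest from 0 in 44 and REG nearest in 37.

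Seen by animal, each parous liver carried most of the pattern. The number of the 79 genes beyond all NUL libraries, in the direction of the call, was 44 to 75 (median 68). LAC_200 had the most and REG_214 the fewest. Stage medians were 74 at LAC, 72 at ID2, 71 at ID4, 62.5 at ID6, 71 at ID8 and 58.5 at REG. These counts describe the libraries that chose the genes and are no test.

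**Figure D3:**
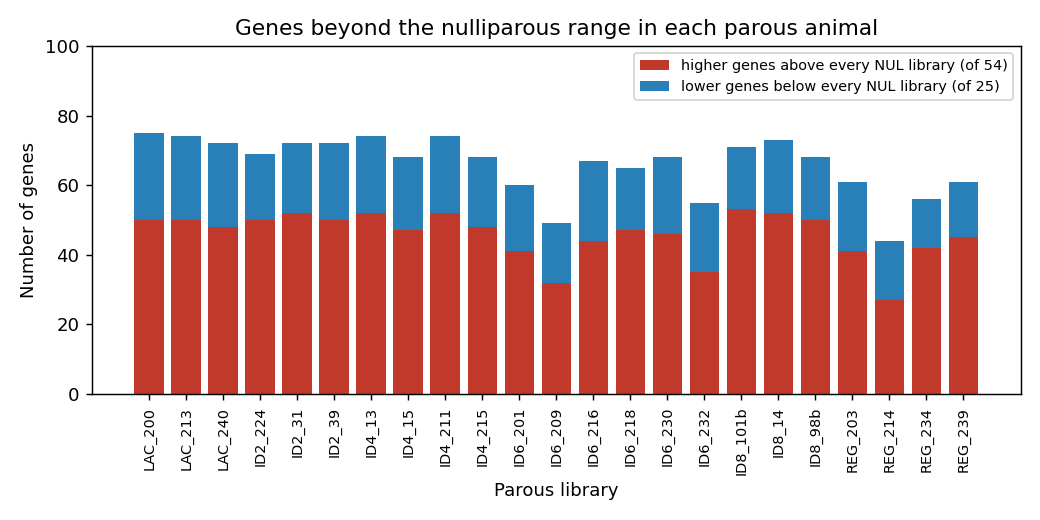
Number of the 79 genes beyond every nulliparous library in each of 23 parous livers (bars), split into the 54 higher genes (red) and the 25 lower genes (blue). Bars run from 44 in REG_214 to 75 in LAC_200.

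The other 12 called genes changed sign on the way, 8 lower and 4 higher on the mean, and 7 of them did so at LAC. Cholesterol synthesis accounted for 5. Its 20 genes, all tested, gave 5 lower edgeR calls and none higher. DESeq2 called 6, against 1.85% of all genes it tested. The median log2 fold change of the 20 was -0.36, and none kept one sign at every stage. Msmo1, a sterol oxidase, had 50.1, 87.8, 64.0 and 99.6 CPM in NUL. Its stage means were 118 at LAC, 81.5 at ID2, 11.3 at ID4, 15.5 at ID6, 38.8 at ID8 and 57.5 at REG, so LAC stood above every NUL library, ID2 and REG lay inside the NUL range, and ID4, ID6 and ID8 lay below it (log2 -0.93, SE 0.13, adjusted p = 2.59e-04, edgeR). Cyp51, the lanosterol demethylase (-0.82, adjusted p = 3.00e-04), Idi1, the isopentenyl diphosphate isomerase (-1.03, adjusted p = 0.00184), Sqle, the squalene epoxidase (-1.07, adjusted p = 0.0408), and Hsd17b7 (-0.55, adjusted p = 0.0314) were the other calls in edgeR. All 5 were above NUL at LAC, lowest at ID4 and next lowest at ID6, and at ID2 the log2 difference from NUL was between -0.20 and 0.20. With ID4 left out of the mean the calls for Cyp51, Idi1 and Sqle were lost, and that for Msmo1 was not. Sqle was called in 15 of 27 fits that each left out 1 library. Hsd17b7 was called in 24 of these, but not without NUL_226 (adjusted p = 0.113, edgeR) or NUL_227 (0.244). It also lost its call without the libraries with title numbers under 200 (adjusted p = 0.0669, edgeR).

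**Figure D4:**
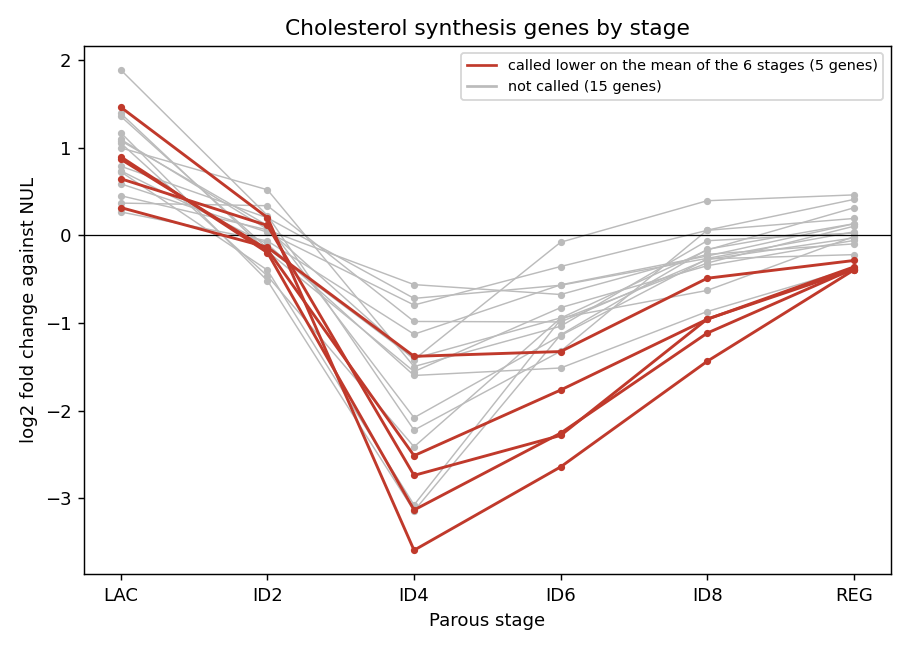
Log2 fold change against nulliparous liver of the 20 cholesterol synthesis genes at 6 parous stages, 1 line per gene. The 5 genes called lower on the mean of stages (red) lie above 0 at LAC and lowest at ID4.

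Dio1, which converts thyroxine to its active form, fell by 1.18 on the log2 scale (SE 0.24, adjusted p = 0.0236, edgeR). LAC was lowest at 7.40 CPM against 76.3, 93.4, 62.5 and 57.3 in NUL, ID4 was level with NUL at 74.5, and REG was at 38.2. It was the single edgeR call among 12 thyroid hormone genes, and the call was lost with LAC left out of the mean or without NUL_220, NUL_221 or NUL_226. Among 22 cell cycle genes DESeq2 called 3 (1.85% of all genes it tested) and edgeR only Cdc20, an activator of mitotic exit. Cdc20 was called lower (log2 -1.43, SE 0.30, adjusted p = 0.0246, edgeR). Its LAC mean of 14.5 CPM was above the NUL values of 2.70, 1.07, 4.502 and 2.84, and REG was lowest at 0.173. On linear CPM the mean over stages (3.02) was above that of NUL (2.78), since LAC outweighs the rest, and the call was lost without NUL_220, NUL_226 or NUL_227. The remaining 5 were Phospho1, lower, and Gm33543, Dcaf12l1, Pdk2 and Il17rb, higher.

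Across 30 gene lists, 9 held a call, and 21 lists with 337 members tested held none. In those 21, 42 members were higher and 17 lower at an unadjusted p under 0.05 (against 1718 of all genes, 10.5%), DESeq2 called 14 (against 274 of all genes it tested, 1.85%), and list medians lay between -0.30 and 0.27. Differences among the parous stages were called by edgeR in 193 of the 337, against 28.3% of all genes tested. Of 20 growth hormone, prolactin and STAT5 genes, 7 kept one sign at every stage (against 17.3% of all genes tested) and edgeR called none, with 5 at an unadjusted p under 0.05 and 2 called by DESeq2. The prolactin receptor gene Prlr stood 0.18 above NUL on the log2 scale (SE 0.07, adjusted p = 0.33, edgeR), and the prolactin and growth hormone transducer Stat5a one of -0.38 (adjusted p = 0.053). Akr1b7, an aldo-keto reductase, stood at 1.28 (SE 0.30, adjusted p = 0.059, edgeR). Of 20 genes of amino acid breakdown and the urea cycle edgeR called none, while 9 were higher and 1 lower at an unadjusted p under 0.05 and DESeq2 called 3.

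Other properties of the libraries moved with these groups. Numbers in the sample titles were all at or above 200 in NUL but under 200 in 7 parous libraries (2 of ID2, 2 of ID4 and all 3 of ID8), and the labels do not say what the numbers mean. With those 7 libraries left out, 44 genes were called (45.5% of them higher, against 63.7%) and 37 kept one direction, 33 of them among the 79. A score of clock genes ranged from 0.19 to 2.07 in NUL and from 0.89 to 2.14 in ID6. It lay wholly below the NUL range in ID2 (-5.40 to -1.61), ID4 (-1.91 to 0.049) and ID8 (-1.799 to -0.142). LAC and REG overlapped the NUL range and also reached below it. With the score as a covariate 41 genes were called and 32 kept one direction. Red cell markers summed to 335 to 713 CPM in NUL, 768 to 1016 in LAC, 53.1 to 264 in ID6 and 19.9 to 35.0 in ID8. Of these markers, 4 of the 6 tested were lower at an unadjusted p under 0.05 (10.5% of all genes in either direction, edgeR), with none called by edgeR or DESeq2. The part of these properties in the results was not tested further. Of the 10 called genes without overlap, Rdh16f2, Lpl, Vtcn1, Cyp2a4, Hexa, Bin2, Pcp4l1 and Npnt kept their calls without the 7 libraries and with the clock score. Neb lost its call without the 7 libraries (adjusted p = 0.0745, edgeR) and Bid lost its call under both. Ntrk2 lost its call with the clock score as a covariate (adjusted p = 0.0788, edgeR) and kept it without the 7 libraries (adjusted p = 0.0274).

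Single controls moved the counts by different amounts. NUL_226 was the lowest control in 22 of the 54 higher genes and the highest in 11 of the 25 lower genes. Without it, 36 genes were called and 28 kept one direction. Without NUL_227 the counts were 47 and 43, without NUL_221 they were 61 and 54, and without NUL_220 they were 91 and 82. Of the 79 genes, 27 were still called in one direction without NUL_226, 38 without NUL_227, 41 without NUL_221 and 54 without NUL_220. Leaving out any single parous library gave 74 to 107 calls.

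**Figure D5:**
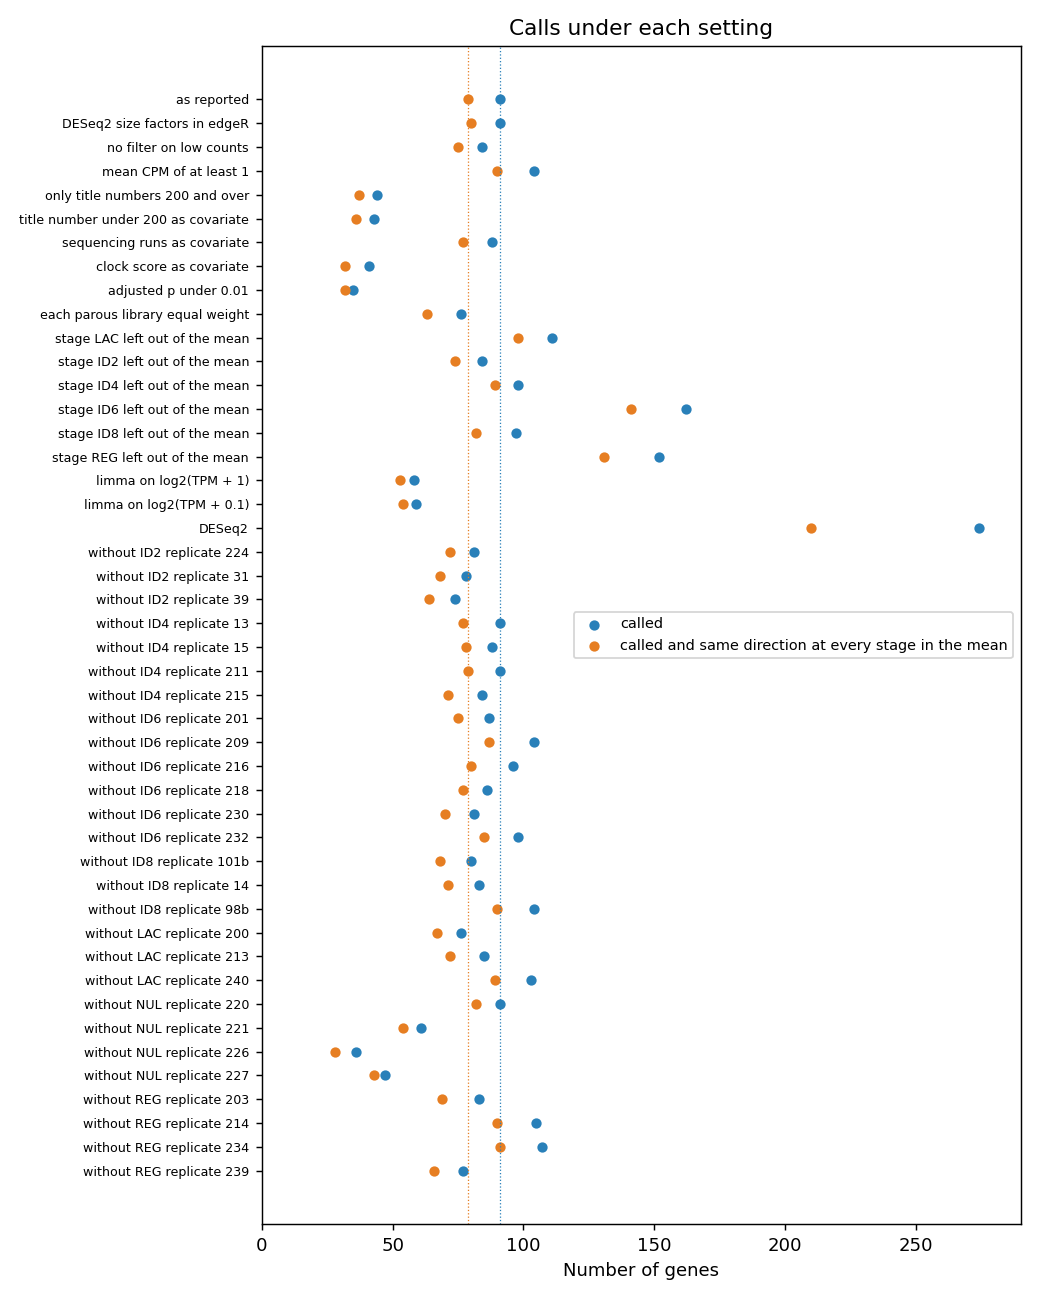
Number of genes called (blue) and called with one direction at every stage (orange) as reported, under 18 other settings and with each of 27 libraries left out. Dotted lines mark the reported 91 and 79. Counts are lowest without NUL_226 (36 and 28) among the left-out libraries and highest with DESeq2 (274 and 210).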

How the data were processed

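RNA sequencing of 27 whole livers gave 1 table per library. Expected counts per gene are the authors' RSEM estimates of reads, per the file headers, not normalised between libraries, and TPM in the same deposited tables is the authors' length-scaled value. STAR 2.6.1a, RSEM 1.3.1 and the build GRCm38 are named in the submitters' processing notes. Use of strand is not given in the sources used here. Between 17.5% and 18.8% of detected genes in a library carried fractional counts, from reads shared between genes. Antisense and overlapping genes are uncertain likewise. Symbols and positions came from GENCODE M21 (51633 of 51826 identifiers found).

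Groups were taken from sample titles. No 2 libraries of a group were close to sampling noise (smallest chi-square 45.7 per gene). Rounded expected counts were fitted in edgeR 4.0.16 (R 4.3.3, filterByExpr by stage, TMM, robust quasi-likelihood) with all 27 libraries in 7 groups. The contrast was the mean of the 6 parous coefficients minus NUL, two-sided, with calls at a Benjamini-Hochberg adjusted p below 0.05 over 16428 genes. The common dispersion was 0.0360. Differences among parous stages were tested jointly. CPM uses TMM-adjusted library totals. SE is the log2 fold change divided by the square root of F.

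Genes named were those called, shifted in one direction at all stages, without overlap, at a mean log2 CPM of at least 1, up to 12 each way. Since only 3 fell without overlap, the largest falls with every stage mean outside the NUL range were taken in that direction, of which 11 are named. Up to 4 called members per list were added, other genes were chosen after their values were seen, and a few called genes are not reported here. Members, lists and rules were chosen with earlier results of these data known. Alternatives were other scalings, filters, thresholds and weights, covariates, DESeq2 1.42.0, limma 3.58.1 on log2(TPM + 1) and log2(TPM + 0.1), each stage left out and each library left out. Check lists for other tissues and a clock score were computed alongside.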

Additional observations from a re-analysis of the deposited data

Results flagged for a closer look

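In all, 5 sample values stood far from the rest of their group, out of 108 groups of values examined, where chance flags about 1 in 20. Bid was 4.10 CPM in NUL_226, against 5.08 to 5.26 in the other controls. Sqle was 5.94 CPM in ID4_13, against 3.29 to 3.68. Slc39a5 was 8.03 CPM in NUL_227, against 9.16 to 9.34. Rapgef5 was 10.1 CPM in ID6_218, against 7.70 to 8.43. Ntrk2 was 17.0 CPM in REG_239, against 3.28 to 4.20.

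The shift from NUL differed in size among the 6 parous stages in 10 of the 18 genes named for their change (edgeR quasi-likelihood test, Benjamini-Hochberg adjustment). The adjusted p was 2.39e-06 for Hexa, 2.74e-05 for Slc39a5, 1.74e-04 for Lpl and 6.25e-04 for Bin2. It was 0.00809 for Npnt, 0.00968 for Rdh16f2, 0.0156 for Vtcn1, 0.0167 for Rapgef5, 0.0230 for Pcp4l1 and 0.0458 for Ntrk2 in the same edgeR test. LAC was furthest from NUL in Lpl, Pcp4l1, Npnt, Rapgef5, Vtcn1, Ntrk2 and Bin2, ID4 in Hexa and Rdh16f2, and ID6 in Slc39a5.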

How the results depend on the processing

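Only 4 controls were available, which limits precision. The 91 calls became 44 with title numbers of 200 and over only, 43 with a title number under 200 as a covariate, 41 with the clock score as a covariate, 35 at an adjusted p under 0.01, 58 and 59 with limma on log2(TPM + 1) and log2(TPM + 0.1), 162 with ID6 left out of the mean, 152 with REG left out and 274 with DESeq2. The 79 genes in one direction became 37, 36, 32 and 32 under the first 4 of these, and 141, 131 and 210 with ID6 left out, REG left out and DESeq2, which kept all 79. The 10 without overlap became 18 with ID6 left out and 21 with REG left out. The 4643 genes that differed among stages became 2477 with title numbers of 200 and over only, 2699 at the stricter threshold and 2595 with LAC left out. Leaving out a stage or libraries changes the samples tested, and otherwise the cause was not tested. Leaving out 1 library gave 36 to 107 calls, 28 to 91 genes in one direction, 10 to 24 without overlap (24 without NUL_220) and 3869 to 4841 that differed among stages. Of the alternative values of 27 named genes, 1056 kept direction and call, 159 kept direction only and 0 reversed. In all 45 alternatives 11 genes were called, among them Rdh16f2, Cyp2a4, Lpl, Vtcn1, Hexa, Bin2, Pcp4l1 and Npnt. No paired analysis was possible because no replicate number occurs in more than 1 group.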
